A study of Mus musculus with 9 samples.

Results

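The genes described here are 10 that respond to glucocorticoid hormones: the receptor gene Nr3c1 and the hormone-responsive genes Fkbp5, Sgk1, Plin4, Tsc22d3, Zbtb16, Cebpb, Cebpd, Pdk4 and Hif3a. They were found as every non-control probe of the array whose RefSeq accession maps to one of these symbols, which gave 13 probes for the 10 genes, out of 30837 genes tested. Each of the 13 was detected well over background on every one of the 9 arrays, so the filter on dim probes removed none of them. Hif3a has 3 probes, Nr3c1 has 2, and each of the other genes has 1. The brightest probe stands for its gene. Of the 30837 genes tested, 17589 have a symbol and 13248 have none. Shares and medians given below for all genes cover both kinds, whereas the genes of every list have a symbol. Shares over genes with a symbol alone are not given here.

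Glucocorticoids, mainly corticosterone in mice, are released by the adrenal gland under stress and cross into the brain. The hormone binds the glucocorticoid receptor, which chaperones hold ready in the cytoplasm, and the bound receptor enters the nucleus and attaches to DNA at glucocorticoid response elements, palindromes with an arm on each side of a short spacer. Among its targets are genes that damp the receptor itself, such as Fkbp5, and genes of metabolism and inflammation. Several of the targets are also switched on by other signals, such as Cebpb and Cebpd by inflammatory cytokines and Hif3a by low oxygen.

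In the VEGF group, mice had a 90 min occlusion of the middle cerebral artery and then, 3 h into reperfusion, an injection into the right ventricle of 1 µl of recombinant human VEGF-A165, a blood vessel growth factor, at 10 µg/ml. In the MCAO group, the occlusion was the same and the injected 1 µl was phosphate-buffered saline. The sham group had sham surgery, for which the labels give no injection. All were adult male C57BL/6 mice, fasted overnight before surgery and aged 50, 50 and 53 days in the VEGF group, 50, 52 and 53 days in the MCAO group and 50, 52 and 52 days in the sham group. Brain RNA, from a region the labels do not name, was taken 24 h after reperfusion from different mice and hybridised to 1 array each, 3 per group. Hormone levels were not analysed here.

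Values are log2 signals relative to the 75th percentile of their array, so a difference of 1 is a doubling, and values of different probes are not comparable with each other. A gene is said to have risen or fallen where limma's adjusted p over all 30837 genes was under 0.05. The 3 sham arrays were on 1 slide and the 6 ischaemic arrays on another, so that ischaemia, injection and slide cannot be told apart in any comparison with sham. The 75th percentile signal was 848 on VEGF array 1, 923 on MCAO array 1 and 1420 to 2070 on the other arrays. Of the spots, 72.97% on VEGF array 1, 78.68% on MCAO array 1 and 79.18% to 81.76% elsewhere were well above background. VEGF array 1 and MCAO array 1 stood apart on the first principal component (141 and 130; the remaining ischaemic arrays scored -8.17 to 15.9, and sham arrays -104 to -90.1). Their neuron markers were lowest (6 genes, median -2.33 on VEGF array 1 and -2.43 on MCAO array 1 relative to sham, with -0.82 to -0.28 elsewhere after occlusion) and the median of their endothelial markers highest (6 genes, 2.51 and 1.74, with 0.32 to 0.63 elsewhere after occlusion). One of these 6, Slco1a4, a transporter gene of brain endothelium, went the other way on both arrays (-2.32 and -1.79). All 6 neuron markers, all 6 astrocyte markers and all 6 oligodendrocyte markers were well above background on every array. The part of these cell type differences, and of the lower signal of both arrays, in the results below was not tested. MCAO array 1 was also scanned on another day, and its processed signals carry no spatial detrending, although none of the 13 probes differs by more than 0.249 log2 units between the deposited signal and one recomputed alike for all arrays.

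Promoters were available from RefSeq (GRCm38.p6) for 7 of the 10 genes, 14 in all, and the 250 bases before each start were searched on both strands for the palindrome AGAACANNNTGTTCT and for a single arm, AGAACA or TGTTCT, which every palindrome also contains. The full palindrome was present in 3 of all 32851 promoters, or 0.00913%, and one of these was a promoter of Sgk1. A single arm was present in 16.1% of all promoters and in 4 of the 14, 3 of Sgk1 and 1 of Tsc22d3. A match describes the letters and not a bound site, and a promoter without one says nothing about sites elsewhere. The promoters below are the one of Sgk1 with the full palindrome, the one of Tsc22d3 with a single arm and, for comparison, those of Fkbp5 and Plin4 without one, 5′ to 3′ on the strand of the gene and with matches in capitals.
Sgk1, chr10:21993640-21993889, plus strand: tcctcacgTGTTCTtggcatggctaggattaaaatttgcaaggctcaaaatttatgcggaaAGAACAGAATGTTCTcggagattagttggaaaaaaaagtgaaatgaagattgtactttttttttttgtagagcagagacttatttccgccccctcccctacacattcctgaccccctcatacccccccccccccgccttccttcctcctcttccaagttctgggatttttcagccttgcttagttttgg
Tsc22d3, chrX:140600523-140600772, minus strand: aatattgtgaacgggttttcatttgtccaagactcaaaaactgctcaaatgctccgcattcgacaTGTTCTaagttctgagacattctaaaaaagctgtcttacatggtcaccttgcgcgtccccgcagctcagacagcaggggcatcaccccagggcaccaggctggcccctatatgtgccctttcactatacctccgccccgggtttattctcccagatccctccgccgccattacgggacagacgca
Fkbp5, chr17:28486150-28486399, minus strand: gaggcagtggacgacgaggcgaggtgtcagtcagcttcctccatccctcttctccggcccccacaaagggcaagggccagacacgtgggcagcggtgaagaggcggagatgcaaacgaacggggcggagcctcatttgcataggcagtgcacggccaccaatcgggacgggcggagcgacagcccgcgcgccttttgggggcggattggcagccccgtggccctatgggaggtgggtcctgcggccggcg
Plin4, chr17:56109783-56110032, minus strand: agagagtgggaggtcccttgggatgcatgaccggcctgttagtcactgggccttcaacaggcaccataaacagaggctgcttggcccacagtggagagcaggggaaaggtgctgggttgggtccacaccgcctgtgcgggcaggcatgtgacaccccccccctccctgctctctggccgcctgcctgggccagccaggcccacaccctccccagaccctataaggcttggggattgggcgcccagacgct
The Sgk1 palindrome, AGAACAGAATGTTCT, lies at chr10:21993701-21993715, 189 bases before the start that follows it and 965 bases before the next start of the gene at 21994666. The table lists 6 starts of Sgk1, and 4 of them lie before the palindrome.

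The first question is what occlusion, with VEGF or with vehicle, did to these genes relative to sham surgery. Cebpd, Sgk1 and Fkbp5 rose in both ischaemic groups, and Plin4 rose in MCAO brains. Of the 10 genes, 3 rose in VEGF against sham, where 2.07% of all genes tested rose, and 4 rose in MCAO against sham, where 2.28% did. None fell in either comparison, where 0.357% and 0.535% of all genes did, and both comparisons use the same 3 sham arrays. In 8 of the 10, all but Nr3c1 and Zbtb16, every one of the 6 ischaemic arrays was above every sham array. Lack of overlap with sham was common on these arrays: 18.2% of all genes lay wholly higher in VEGF than in sham and 19.6% wholly higher in MCAO than in sham. The median difference of the 10 genes was 1.53 in VEGF against sham and 1.33 in MCAO against sham, beside -0.12 and -0.04 over all genes tested. In whole tissue, more cells of a type and more RNA per cell cannot be told apart.

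**Figure D1:**
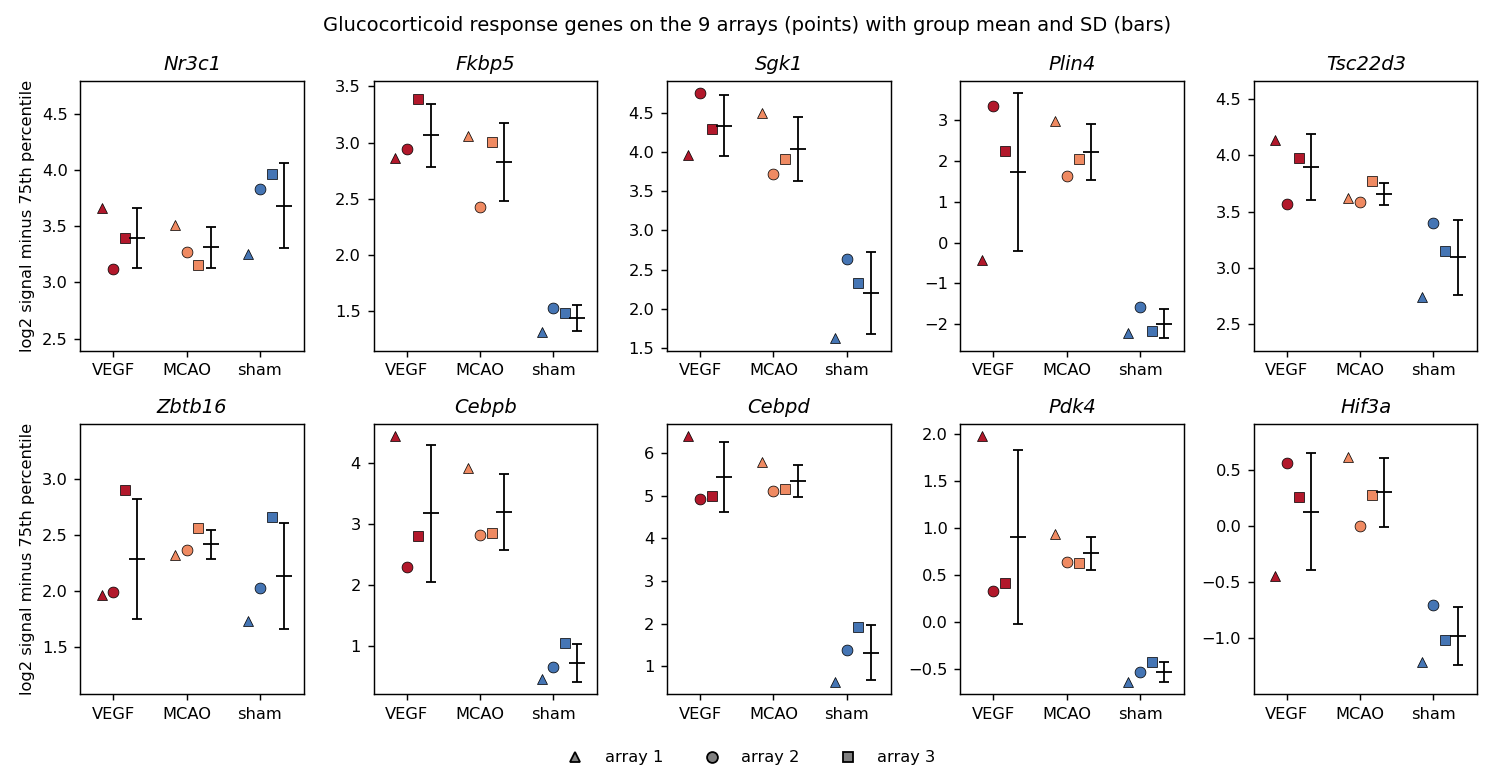
Log2 signal relative to the 75th percentile of the array (vertical axis, a scale of its own for each gene) of the brightest probe of each gene on the 3 VEGF, 3 MCAO and 3 sham arrays; marker shape gives the array number, and bars give the group mean and SD. In 8 panels every ischaemic point is above every sham point, while the groups overlap for Nr3c1 and Zbtb16, and Plin4 on VEGF array 1, at -0.42, is far below the other ischaemic arrays.

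The receptor itself did not pass the test. The bright probe of Nr3c1 (chr18:39410545-39519421) read 3.66, 3.12 and 3.40 on the VEGF arrays, 3.51, 3.27 and 3.15 on the MCAO arrays, against 3.25, 3.83 and 3.96 on the sham arrays. The ischaemic arrays lie within or just below the sham range, whose lowest array is below 4 of the 6. The difference was -0.29 ± 0.25 (SE) in VEGF against sham, with a 95% interval of -0.86 to 0.28, and -0.37 ± 0.25 in MCAO against sham, -0.94 to 0.20 (limma adjusted p = 0.473 and 0.401). The second probe of Nr3c1, for the same RefSeq transcript, pointed the other way, by 0.59 ± 0.50 and 0.48 ± 0.50. It read -0.18, -1.39 and -1.53 on the VEGF arrays, -0.17, -1.61 and -1.66 on the MCAO arrays, against -2.06, -1.68 and -1.14 on the sham arrays. Its highest values are those of the pair of arrays that stand apart. The sign for Nr3c1 is therefore not settled: the mean of both probes gave 0.15 in VEGF against sham and 0.05 in MCAO against sham.

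Fkbp5 encodes a co-chaperone that lowers the receptor's affinity for hormone and so holds its signalling back. Tsc22d3 (GILZ) encodes a leucine zipper protein through which the hormone restrains inflammatory transcription. Fkbp5 (chr17:28398753-28486149) read 2.87, 2.94 and 3.39 on the VEGF arrays, 3.06, 2.43 and 3.00 on the MCAO arrays, against 1.31, 1.53 and 1.48 on the sham arrays. All 6 ischaemic arrays exceed the sham mean by 0.99 to 1.95, and the sham arrays lie close together. Fkbp5 rose by 1.62 ± 0.24 in VEGF against sham, which is 3.08-fold (limma adjusted p = 0.0123), and by 1.39 ± 0.24 in MCAO against sham, 2.62-fold (limma adjusted p = 0.0211). Tsc22d3 (chrX:140539528-140600522) read 4.13, 3.57 and 3.98 on the VEGF arrays, 3.62, 3.58 and 3.77 on the MCAO arrays, against 2.74, 3.40 and 3.15 on the sham arrays. The groups do not overlap, but the highest sham array comes close to the lowest ischaemic one, and the differences of 0.80 ± 0.23 and 0.56 ± 0.23 did not pass (limma adjusted p = 0.113 and 0.217).

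Sgk1, the serum- and glucocorticoid-regulated kinase that acts on ion channels and transporters, carries the palindrome printed above and spans chr10:21882184-21999903. It read 3.97, 4.75 and 4.29 on the VEGF arrays, 4.50, 3.71 and 3.90 on the MCAO arrays, against 1.62, 2.64 and 2.33 on the sham arrays. The lowest ischaemic array is well above the highest sham array. Sgk1 rose by 2.14 ± 0.34 in VEGF against sham, 4.40-fold (limma adjusted p = 0.0178), and by 1.84 ± 0.34 in MCAO against sham, 3.58-fold (limma adjusted p = 0.0284).

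Plin4 encodes perilipin 4, a coat protein of lipid droplets, and Pdk4 a kinase that switches pyruvate dehydrogenase off and so spares glucose. Plin4 (chr17:56100587-56109948) read -0.42, 3.35 and 2.25 on the VEGF arrays, 2.99, 1.64 and 2.06 on the MCAO arrays, against -2.23, -1.58 and -2.17 on the sham arrays. It spreads most of the 10 within the VEGF group (SD 1.94, n = 3), through VEGF array 1 alone. Plin4 rose by 4.22 ± 0.84 in MCAO against sham, 18.7-fold (limma adjusted p = 0.0374). In VEGF against sham the difference was 3.72 ± 0.84 and did not pass (limma adjusted p = 0.0634), and without VEGF array 1 it was 4.79 and passed (limma adjusted p = 0.00506). Pdk4 (chr6:5483351-5496278) read 1.97, 0.33 and 0.42 on the VEGF arrays, 0.93, 0.64 and 0.62 on the MCAO arrays, against -0.63, -0.53 and -0.43 on the sham arrays. Here VEGF array 1 is the highest array, where for Plin4 it is the lowest ischaemic one. The Pdk4 differences of 1.44 ± 0.40 and 1.26 ± 0.40 did not pass (limma adjusted p = 0.104 and 0.136).

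Cebpb and Cebpd are transcription factors of the C/EBP family that act in fat cell formation and in the acute-phase response. Cebpd (chr16:15887286-15889545) read 6.39, 4.93 and 5.0 on the VEGF arrays, 5.78, 5.10 and 5.16 on the MCAO arrays, against 0.64, 1.39 and 1.92 on the sham arrays. It rose by 4.12 ± 0.47 in VEGF against sham, 17.4-fold (limma adjusted p = 0.00421), and by 4.03 ± 0.47 in MCAO against sham, 16.3-fold (limma adjusted p = 0.00442). These are the smallest p-values among the 10 genes. Cebpb (chr2:167688915-167690432) read 4.43, 2.29 and 2.80 on the VEGF arrays, 3.91, 2.82 and 2.85 on the MCAO arrays, against 0.46, 0.66 and 1.06 on the sham arrays. For both genes array 1 of each ischaemic group is the highest of its group, and for Cebpb that spread is wide (SD 1.12 in VEGF brains and 0.62 in MCAO brains, n = 3 each). The Cebpb differences of 2.45 ± 0.54 and 2.47 ± 0.54 fell short of the threshold (limma adjusted p = 0.0601 and 0.0540).

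Zbtb16 (PLZF) and Hif3a are the remaining transcription regulators, Hif3a being a member of the hypoxia-inducible factor family with forms that oppose its relatives. The bright probe of Hif3a (chr7:17030993-17062427) read -0.45, 0.56 and 0.26 on the VEGF arrays, 0.61, 0.00 and 0.28 on the MCAO arrays, against -1.22, -0.71 and -1.02 on the sham arrays. The differences were 1.1 ± 0.30 in VEGF against sham and 1.28 ± 0.30 in MCAO against sham, and neither passed (limma adjusted p = 0.0979 and 0.0660). Its other 2 probes, dimmer, had the same sign, 0.94 ± 0.36 and 0.75 ± 0.42 in VEGF against sham and 0.87 ± 0.36 and 0.73 ± 0.42 in MCAO against sham. Zbtb16 (chr9:48651797-48836225) read 1.96, 1.99 and 2.90 on the VEGF arrays, 2.32, 2.37 and 2.56 on the MCAO arrays, against 1.73, 2.02 and 2.65 on the sham arrays. The 3 groups overlap, and the differences of 0.15 ± 0.32 (95% interval -0.59 to 0.89) and 0.28 ± 0.32 (-0.46 to 1.02) did not pass (limma adjusted p = 0.787 and 0.628).

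**Figure D2:**
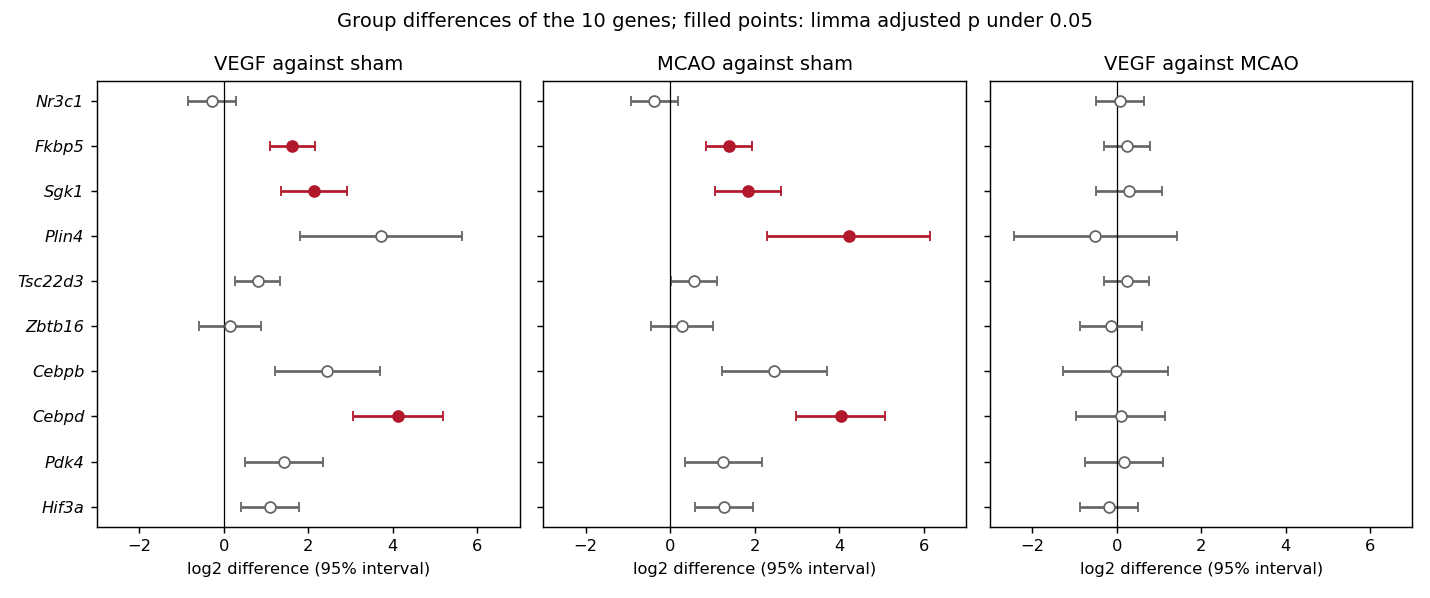
Log2 difference (horizontal axis) with its 95% interval from limma for each of the 10 genes, in VEGF against sham, MCAO against sham and VEGF against MCAO; filled points have an adjusted p under 0.05. Cebpd, Sgk1 and Fkbp5 are filled in both comparisons with sham and Plin4 in MCAO against sham, and every interval of VEGF against MCAO includes 0.

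The second question is whether VEGF changed these genes in the ischaemic brain. None of the 10 passed in VEGF against MCAO, where 0.00649% of all genes did, and none had an unadjusted p under 0.05, against 856 of the 30837 genes. No gene of the 10 had groups that did not overlap, a pattern found in 5.80% of all genes. The differences ran from -0.50 ± 0.84 for Plin4 (95% interval -2.42 to 1.42) to 0.30 ± 0.34 for Sgk1 (-0.48 to 1.07), and the lowest unadjusted p was 0.340, for Tsc22d3. For Fkbp5 the interval was -0.31 to 0.78 and for Tsc22d3 -0.30 to 0.77, so that these intervals leave out a doubling. Those of Cebpd (-0.97 to 1.15), Cebpb (-1.26 to 1.22) and Pdk4 (-0.75 to 1.1) do not leave one out. In data simulated for this comparison, 22% of 50 planted 2-fold and 64% of 50 planted 4-fold changes were recovered. The simulated noise was normal, independent between genes and of like spread on all arrays. The real arrays differ in spread, with array weights from 0.11 on MCAO array 1 to 4.25 on MCAO array 2. The shares recovered may therefore not hold for them. Without array 1 of both groups the differences of Plin4 and Sgk1 were 0.95 ± 0.40 and 0.71 ± 0.34, VEGF higher, and did not pass either (limma adjusted p = 0.680 and 0.718), where 0.00973% of all genes did. The sign for Plin4 thus turns on those arrays. Without them the interval of Fkbp5 was -0.14 to 1.03, which does not leave out a doubling, and that of Tsc22d3 was -0.51 to 0.71. The genes that passed among all genes were Orm1 and Orm2, named after their values were seen. They passed on deposited signals only (limma adjusted p = 0.417 and 0.354 with recomputed signals).

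The number of calls, among the 10 genes as over all genes, depended on which arrays were in the fit. With all 9 arrays, 748 of all genes were called in VEGF against sham and 868 in MCAO against sham. Without VEGF array 1 and MCAO array 1, 7 of the 10 rose in VEGF against sham and 7 rose in MCAO against sham, while 8.76% and 9.79% of all genes rose. Cebpb, Pdk4 and Hif3a joined Cebpd, Fkbp5, Sgk1 and Plin4 in both. Pdk4 then differed by 0.90 ± 0.12 in VEGF against sham and by 1.16 ± 0.12 in MCAO against sham (limma adjusted p = 0.00743 and 0.00284), and Cebpb by 1.82 ± 0.23 and 2.11 ± 0.23 (limma adjusted p = 0.00626 and 0.00310). Without VEGF array 1 alone there were 5 calls in VEGF against sham and 7 in MCAO against sham, and without MCAO array 1 alone there were 5 and 2. Over all genes there were 570 and 2583 calls without VEGF array 1, and 3270 and 1177 without MCAO array 1. Without MCAO array 2 there were 3 and 2 calls, and without MCAO array 3 there were 3 and 1. The counts over all genes were 588 and 525 without MCAO array 2, and 528 and 383 without MCAO array 3. Leaving out sham array 1, 2 or 3 gave 1, 2 and 1 calls in VEGF against sham and 1 each in MCAO against sham. Over all genes that left 156, 203 and 171 calls in VEGF against sham and 190, 256 and 248 in MCAO against sham. The Fkbp5 call was lost without any 1 sham array in both comparisons, and without MCAO array 3 in MCAO against sham (limma adjusted p = 0.0609 to 0.111). The Sgk1 call was lost without sham array 1 or 3 in VEGF against sham, and without any 1 sham or MCAO array in MCAO against sham (limma adjusted p = 0.0512 to 0.119). The Plin4 call in MCAO against sham was lost without any 1 sham or MCAO array or VEGF array 3 (limma adjusted p = 0.0518 to 0.169). Cebpd was called in both comparisons under all 22 alternatives run. Fkbp5 was called in 19 of them in VEGF against sham and in 18 in MCAO against sham, and Sgk1 in 20 and 16. Plin4 was called in 6 and 14. With the array number as a block, Plin4 missed the threshold in MCAO against sham (limma adjusted p = 0.0517).

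On every ischaemic array the 10 genes were higher on balance than in sham. Their median relative to the sham mean was 1.5, 1.52 and 1.59 on the VEGF arrays and 1.61, 1.08 and 1.41 on the MCAO arrays, against -0.31, 0.12 and 0.12 on the sham arrays. The lowest of the ischaemic medians, on MCAO array 2, is above every sham median. The log2 of the summed signal of the neuron markers, in which bright probes weigh most, was 6.72 to 8.40 on the VEGF arrays and 6.64 to 8.28 on the MCAO arrays. On the sham arrays it was 8.65 to 8.66. The same value for the endothelial markers was 4.23 to 6.45 on the VEGF arrays and 4.20 to 5.60 on the MCAO arrays, against 3.65 to 3.85 on the sham arrays. With all 9 arrays no endothelial marker rose, and Slco1a4 fell by 2.23 ± 0.25 in VEGF against sham and by 1.59 ± 0.25 in MCAO against sham (limma adjusted p = 0.00388 and 0.0150). Without array 1 of both groups Cdh5 rose by 1.35 in VEGF against sham and by 1.81 in MCAO against sham. Esam then rose by 1.59 and 1.99, and Slco1a4 fell by 2.18 and 1.49 (limma adjusted p = 0.00154 to 0.0117 over these genes). In that fit 2701 and 3018 of all genes rose and 3474 and 4010 fell. Of 6 neuron markers none passed with all 9 arrays. Without array 1 of both groups, Tubb3 (-0.93 and -1.19) and Syp (-0.77 and -0.92) fell in VEGF and in MCAO against sham (limma adjusted p = 0.00270 to 0.0366). Stmn2 then fell in MCAO against sham (-0.68, limma adjusted p = 0.0260). Of the 5 neutrophil markers measured, 4 rose in each comparison with sham: S100a8, S100a9, Cxcr2 and Mmp8. In sham brains Cxcr2 and Mmp8 were not well above background, so they passed the filter on dim probes only through the ischaemic groups. Their rise, and their part in the median of the list, is thus tied to that choice and is given as description only. The median of the 5 relative to sham was 4.59 to 7.06 on the VEGF arrays and 4.29 to 7.33 on the MCAO arrays. The log2 of their summed signal was 6.65 to 7.77 on the VEGF arrays and 6.74 to 7.93 on the MCAO arrays, against 6.36 to 6.71 on the sham arrays. That sum rests most on Csf3r, the brightest of the 5 on every array, at 6.35 to 6.69 on the sham arrays. Csf3r differed by -0.17 in VEGF against sham and by 0.19 in MCAO against sham and did not pass. No astrocyte marker of 6 passed in either comparison with sham. With array 1 of both groups left out, Gja1 fell by 1.05 in VEGF against sham and by 0.91 in MCAO against sham (limma adjusted p = 0.00883 and 0.0106). Among mural cell and fibroblast markers, Pdgfrb, Dcn and Kcnj8 then rose in MCAO against sham and Rgs5 fell in VEGF against sham (limma adjusted p = 0.0278 to 0.0379). Both measured red blood cell markers, Hba-a1 and Alas2, were above every sham array on all 6 ischaemic arrays, with median differences of 1.1 and 1.22, and neither passed in either comparison. Of 5 microglia and macrophage markers none rose, and P2ry12 fell by 2.31 ± 0.20 in VEGF against sham and by 2.67 ± 0.20 in MCAO against sham (limma adjusted p = 0.00122 and 0.000610). With array 1 of both groups left out, Aif1 rose by 0.87 and 0.85 (limma adjusted p = 0.0275 and 0.0260), and P2ry12 fell by 2.41 and 2.58. Tmem119 then fell by 0.87 in MCAO against sham (limma adjusted p = 0.0158). Choroid plexus markers differed within each group, most widely among VEGF brains, with medians of -3.73, 1.42 and -3.84. MCAO brains had medians of 2.04, -0.81 and -0.22, while sham brains had 0.56, 0.44 and -1.10. Aqp1, 1 of these 6 markers, was higher than the sham mean in VEGF brains 1 and 3 (by 2.02 and 2.03), where the other markers were lower. The part of these cell types in the higher signals was not tested.

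**Figure D3:**
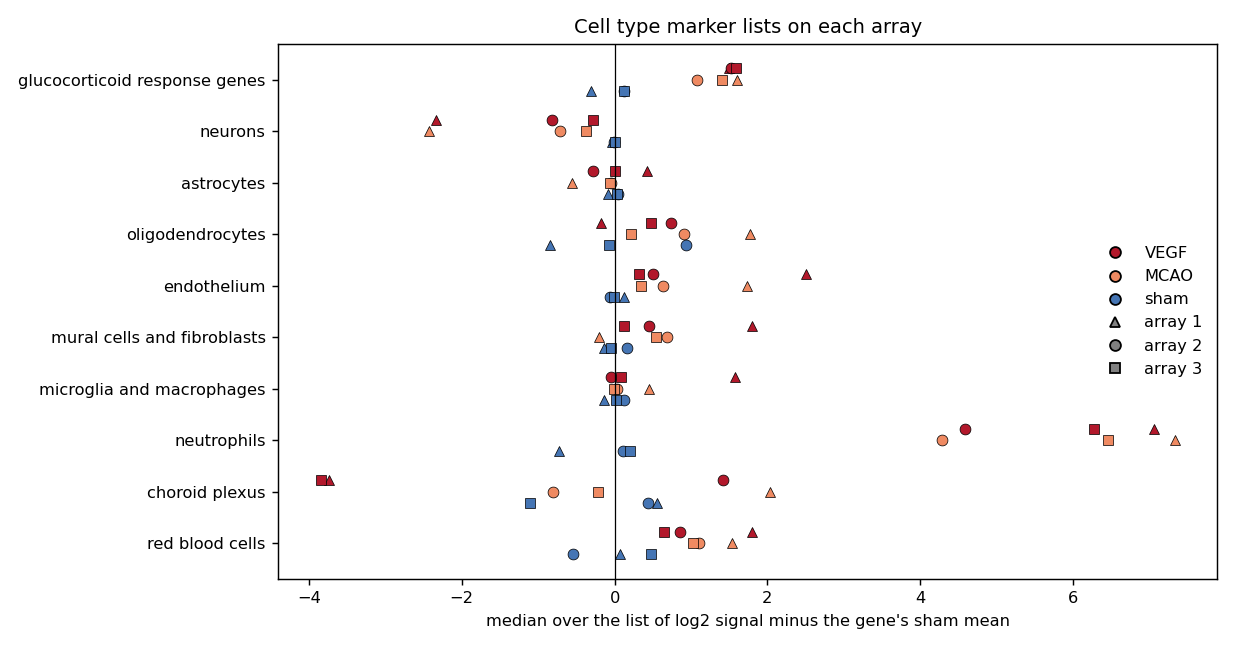
Median, over each list, of the log2 signal minus the gene's sham mean (horizontal axis) on every array, for the 10 glucocorticoid response genes and 9 lists of cell type markers; colour gives the group and marker shape the array number. The 10 genes lie between 1.08 and 1.61 on all 6 ischaemic arrays, while neuron and endothelial markers set array 1 of the VEGF and MCAO groups apart from arrays 2 and 3.

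Other textbook targets of the hormone behaved in part alike. Of 23 further glucocorticoid-induced genes, 8 rose and none fell in VEGF against sham, and likewise 8 rose and none fell in MCAO against sham, with median differences of 1.44 and 1.18. Over all genes, 2.07% and 2.28% rose. Lcn2, a siderophore-binding protein also made by reactive astrocytes, read 5.38, 5.57 and 5.33 on the VEGF arrays, 6.08, 4.61 and 5.58 on the MCAO arrays, against -1.46, -1.37 and -1.36 on the sham arrays. The kinase gene Map3k6 rose by 2.95 ± 0.36 in VEGF against sham and by 2.79 ± 0.36 in MCAO against sham. Zfp36, which encodes an mRNA-destabilising protein, rose by 3.90 ± 0.62 and 3.95 ± 0.62. The metallothionein genes rose less, Mt2 by 1.96 ± 0.28 and 1.70 ± 0.28 and Mt1 by 1.44 ± 0.22 and 1.23 ± 0.22. Their adjusted p-values from limma lay between 0.000136 and 0.0252. Cdkn1a, Tgm2 and Angptl4, named after their values were seen, make up the 8. Other known targets did not pass: Per1 differed by 0.64 ± 0.49 and 0.74 ± 0.49, Klf9 by 0.13 ± 0.40 and 0.49 ± 0.40, and Klf15 by 0.06 ± 0.38 and -0.09 ± 0.38. These 3 were also chosen after their values were seen. Others that did not pass differed more. On the ischaemic arrays Nfkbia was 1.44 to 3.53 and Anxa1 1.55 to 3.72 above the sham mean, both likewise named after their values were seen. Of the 23, 15 did not overlap sham in VEGF and 14 in MCAO, beside 12982 and 12419 of all 30837 genes. Without array 1 of both groups, 14 and 13 of the 23 rose, and the shares over all genes were also higher, at 8.76% and 9.79%.

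**Figure D4:**
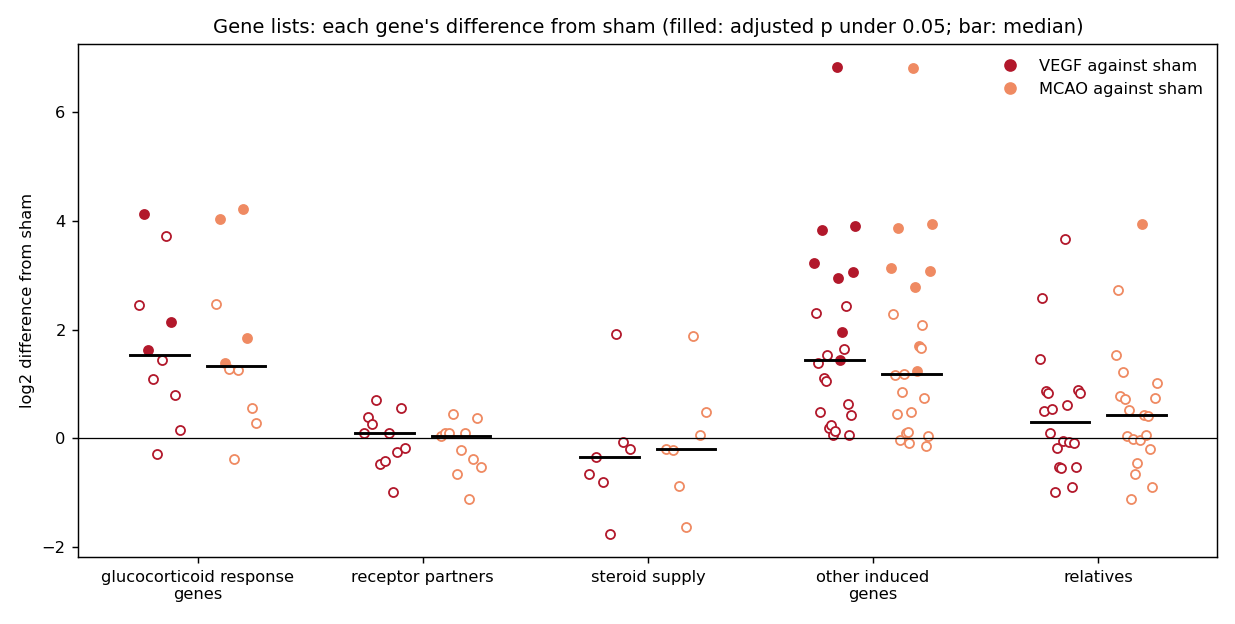
Log2 difference from sham (vertical axis) of every gene of 5 lists, in VEGF against sham and MCAO against sham; filled points passed limma's adjusted threshold and bars give the list's median. Among receptor partners and steroid supply no point is filled, whereas 8 of 23 other induced genes are filled in each comparison.

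In VEGF against MCAO none of the 23 passed, where 0.00649% of all genes did. With array weights 1 of the 23 and 27 of all genes passed. Ddit4, an inhibitor of mTOR signalling induced by glucocorticoids and by low oxygen, had the smallest unadjusted p, 0.0126, with a difference of 1.14 ± 0.36 (limma adjusted p = 1.00). It read 5.32, 5.24 and 5.09 on the VEGF arrays, 4.98, 3.56 and 3.68 on the MCAO arrays, against 3.83, 4.28 and 4.20 on the sham arrays. All 3 VEGF arrays are above all 3 MCAO arrays, by the smallest margin against MCAO array 1. Without array 1 of both groups the difference of Ddit4 was 1.54 ± 0.19 and did not pass (limma adjusted p = 0.137). Sult1a1, a sulfotransferase gene, came next with 0.39 ± 0.30. Among the lists described below, the smallest p-values of VEGF against MCAO belonged to Hsp90aa1 (0.30 ± 0.19) and Stip1 (0.34 ± 0.23), to Srd5a1 (-0.67 ± 0.33) and Abcb1a (-0.46 ± 0.42), and to Sgk2 (-1.30 ± 0.61) and Tsc22d1 (0.36 ± 0.28), none of which passed.

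Genes that work with the receptor or supply its hormone showed no call. None of 11 receptor partners passed in VEGF against sham or in MCAO against sham, with median differences of 0.10 and 0.04. Nr3c2, the mineralocorticoid receptor gene, which binds the same hormone, differed by -0.98 ± 0.30 and -1.12 ± 0.30 (limma adjusted p = 0.123 and 0.0911). It read -3.26, -2.49 and -2.69 on the VEGF arrays, -3.54, -2.63 and -2.68 on the MCAO arrays, against -1.85, -1.93 and -1.71 on the sham arrays, without overlap. Such lack of overlap, in either direction, was found for 12982 of all 30837 genes in VEGF against sham and for 12419 in MCAO against sham. Without array 1 of both groups Nr3c2 fell by 0.76 in VEGF against sham and by 0.82 in MCAO against sham (limma adjusted p = 0.0145 and 0.00950). Of all genes, 3474 and 4010 fell without those arrays, and 2701 and 3018 rose. The chaperone gene Hspa8 differed by 0.71 ± 0.22 in VEGF against sham and the co-chaperone gene Stip1 by -0.52 ± 0.23 in MCAO against sham (limma adjusted p = 0.123 and 0.227). With those arrays left out, Hspa8 rose by 0.54 in VEGF against sham and Stip1 fell by 0.68 in MCAO against sham (limma adjusted p = 0.0281 and 0.0315). Of 8 genes of steroid supply 7 were bright enough to test, and none passed. H6pd, whose product feeds the enzyme that regenerates corticosterone, differed by 1.93 ± 0.60 and 1.89 ± 0.60 (limma adjusted p = 0.128 and 0.134). Crhr1, a receptor of the hormone that drives the stress axis, differed by -1.76 ± 0.78 in VEGF against sham, and Crhbp, a protein that binds that hormone, by -0.88 ± 0.37 in MCAO against sham. Leaving out array 1 of both groups, H6pd rose by 1.23 and 1.44 (limma adjusted p = 0.0124 and 0.00638), and Crhr1 fell by 0.92 and 0.94 (limma adjusted p = 0.0408 and 0.0346). Abcb1a, which encodes a drug efflux pump that also carries steroids, then fell by 1.07 in VEGF against sham (limma adjusted p = 0.0429).

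Relatives of the 10 genes form the last list. Of 20 family members, none passed in VEGF against sham and Plin2 alone rose in MCAO against sham, with medians of 0.31 and 0.42. Over all genes, 2.07% and 2.28% rose. Plin2, another coat protein of lipid droplets, read 5.62, 2.57 and 2.83 on the VEGF arrays, 5.07, 3.63 and 3.13 on the MCAO arrays, against 0.34, -0.15 and -0.20 on the sham arrays. It rose by 3.94 ± 0.80 in MCAO against sham (limma adjusted p = 0.0401), and the difference of 3.68 ± 0.80 in VEGF against sham did not pass (0.0573). VEGF array 1 was the highest array for Plin2 and the lowest ischaemic array for Plin4. Cebpa, the C/EBP relative with the next smallest p in VEGF against sham, differed by 1.45 ± 0.37 (limma adjusted p = 0.0834). Without array 1 of both groups 5 of the 20 rose and 1 fell in VEGF against sham, and 6 rose and 1 fell in MCAO against sham. The shares of all genes that rose were then 8.76% and 9.79%, and 3474 and 4010 of the 30837 genes fell. Plin2 then passed in VEGF against sham with a smaller difference, 2.70 ± 0.23 (limma adjusted p = 0.00198).

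Genes with the pattern most like that of Fkbp5 were taken as those with the smallest root mean square difference over the 9 arrays, after each gene's sham mean was subtracted. They were Il4 (0.193 log2 units), Tma16 (0.211), Cers3 (0.224), Mab21l3 (0.231) and F830016B08Rik (0.232). Il4 differed by 1.79 in VEGF against sham and by 1.33 in MCAO against sham, and Fkbp5 by 1.62 and 1.39. That these are close follows from how Il4 was chosen. The genes nearest to the bright probe of Nr3c1 were Pwwp2b (0.111), Mpst (0.113), AI413582 (0.139), Il3 (0.148) and Mettl23 (0.154), all with differences from sham between -0.39 and -0.25. Their sign too follows from the choice, and the second probe of Nr3c1 pointed the other way.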

How the data were processed

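Brain RNA of 9 mice was read on 9 Agilent 1-colour arrays, 3 per group. The deposited scanner files give spot intensities. The scanner software, Agilent Feature Extraction 10.7.1.1 per the submitters' processing notes, subtracted background and divided by a spatial trend, which per the file headers is a ratio. The authors also deposited a table read as log2 values, whose normalization is not given in the sources used here; its column medians are 6.97 on every array and it was used only as an alternative. Here spots of a probe were averaged, processed intensities were put on the log2 scale, and the 75th percentile of the non-control probes was subtracted per array. Probes detected throughout 1 group or more, 43921 of 55681, entered the tests. Symbols were assigned by RefSeq accession (GRCm38.p6 table). The model was 1 limma fit (version 3.58.1, R 4.3.3) of all 9 arrays, two-sided, with Benjamini-Hochberg adjustment over 30837 genes; values after ± are standard errors unless SD is named. The number of arrays limits the precision (median standard error 0.31). Signal is relative, so a change shared by most genes would not show.

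Genes are named by rule: the 10 genes with every probe, of each list at most 4 called genes per direction by smallest p or, with none called, the 2 of smallest p, and the 5 genes nearest to Fkbp5 and to Nr3c1. The members, lists and tests were chosen with earlier results of these data known. Lists are described by counts and medians, with no list test. Deviations from the group means of VEGF and MCAO arrays of the same number correlated at 0.59, 0.22 and 0.56. VEGF and MCAO arrays of unlike number gave -0.56 to 0.39. Among these, VEGF array 3 with MCAO array 2 gave 0.39 and VEGF array 2 with MCAO array 3 gave 0.23. Whether the numbers pair these groups is therefore not settled. Same-number pairs with sham gave -0.11 to 0.15. On simulated data the fit recovered 60% of 4-fold and 82% of 8-fold changes in VEGF against sham, and 64% and 92% in MCAO against sham. There, 50 changes were planted per fold and noise had a like spread on all arrays, so the shares may not hold for the real arrays. Background correction, scaling, filters, probe choice, covariates and left-out arrays were varied.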

Additional observations from a re-analysis of the deposited data

How the results depend on the processing

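The 8 genes wholly above sham kept a positive difference from sham under all 22 alternatives; Nr3c1 turned positive with the mean of its probes, Zbtb16 turned negative in VEGF against sham without sham array 1 and without VEGF array 3, and Nr3c1 was called lower in MCAO against sham with array weights (limma adjusted p = 0.0172). Across the 10 genes, calls were gained 18 times and lost 5 times of 220 for VEGF over sham, and gained 20 times and lost 18 times of 220 for MCAO over sham, and none was made in VEGF against MCAO. The main counts are 3, 4 and 0 of the 10 genes and 748, 868 and 2 of all genes, for VEGF against sham, then MCAO against sham, then VEGF against MCAO. Array weights gave 7 and 8 of the 10 and 7094, 12385 and 27 of all genes. Leaving out the pair of arrays gave 7 and 7 of the 10 and 6175 and 7028 of all. Recomputed signals gave 5 of the 10 in VEGF against sham, with 1555 of all there and 0 in VEGF against MCAO. Median scaling gave 5 of the 10 and 1588 of all in VEGF against sham. Fitting only the 2 groups compared called 7 of the 10 and 1788 of all for MCAO over sham, and 1 gene between VEGF and MCAO. Normexp gave 440, 558 and 0 of all genes, quantile normalization 4 and probes well above background everywhere 0 in VEGF against MCAO, and age as a covariate 1594 in MCAO against sham. Leaving out 1 array gave 1 to 5, 1 to 7 and 0 to 0 of the 10 and 156 to 3270, 190 to 2583 and 1 to 3 of all genes. Causes were not tested; the left-out arrays also leave fewer samples.

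With the replicate block, 4, 4 and 0 of the 10 genes and 946, 1229 and 2 of all genes were called; Cebpb was gained in both comparisons with sham (limma adjusted p = 0.0470 and 0.0424), Plin4 was lost in MCAO against sham, and no other call among the 10 changed. The block of slide was not run, since VEGF and MCAO share 1 slide and sham fills the other, and a block of scan day equals leaving out MCAO array 1. Of all calls, 85.3% were higher for VEGF over sham and 81.0% for MCAO over sham, but 44.7% and 70.3% with recomputed signals, 44.6% and 40.7% with array weights, 43.7% and 42.9% without the pair of arrays and 49.9% and 50.3% without MCAO array 1, so the majority direction of all calls is not settled. The median of all genes moved by -0.12 in both comparisons with sham under recomputed signals, by 0.14 in VEGF against sham under normexp and by 0.16 in VEGF against MCAO under median scaling. Under median scaling 8 of the 10 genes were positive in VEGF against MCAO, against 6 in the main setting, with none called.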
